A study of Mus musculus with 35 samples.

Results

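The elastic fiber genes are 10 genes, Eln, Fbn1, Fbn2, Fbln1, Fbln2, Fbln5, Emilin1, Mfap2, Mfap4 and Mfap5, chosen by name from the 22830 gene symbols in the deposited counts. All 10 were found in both count tables and passed the filter on low counts in every comparison, and the lowest count of any member in any wound was 228 reads. RNA was sequenced from 35 wounds of adult C57BL/6 mice of both sexes, and each library came from a punch of the middle of a full-thickness dorsal wound. Col5a1CKO mice carried Col1a2CreERT and 2 floxed Col5a1 alleles (Col5a1 fl/fl), so that tamoxifen deletes Col5a1 in cells that use the Col1a2 enhancer, mainly fibroblasts. WT mice were littermates with the same floxed alleles and no Cre, and all mice were given tamoxifen. The day 14 wounds were 7 WT, 7 Col5a1CKO and 3 Col5a1CKO injected with cultured skin fibroblasts of WT mice. By the study's account the mice without fibroblasts were injected with vehicle. A further 3 WT and 3 Col5a1CKO wounds were taken at day 19. In the cilengitide experiment, also harvested at day 14, there were 4 WT wounds with vehicle, 4 Col5a1CKO wounds with vehicle and 4 Col5a1CKO wounds from mice given cilengitide, an inhibitor of the αvβ3 integrin. A treatment field of the record names WT fibroblasts for the Col5a1CKO wounds of day 19, and the sample titles, which place that treatment at day 14, were followed. The study states that its n are separate biological replicates, the labels do not tie wounds to animals, and the p-values measure the spread between these wounds.

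Elastic fibers give skin its recoil. Fibroblasts secrete tropoelastin, the product of Eln, which is deposited and crosslinked on a scaffold of microfibrils. Fibrillins (Fbn1, Fbn2) are the backbone of the microfibril, microfibril-associated proteins (Mfap2, Mfap4, Mfap5) bind to it, and fibulins (Fbln1, Fbln2, Fbln5) and the interface protein Emilin1 join elastin to microfibrils and cells. Elastic fibers are laid down mostly in development, and adult scars are known to be poor in them.

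Rows that name a gene held 15043531 to 35700337 counts per wound in the time-course table, which also has the wounds with fibroblasts, and 51211600 to 68266760 in the cilengitide table, and levels below are TMM-normalized CPM, the count of a gene scaled to a common library total. Wounds are named by group and the letter or number of the library. In the time-course table the level of GC-rich relative to GC-poor genes split the libraries into 2 sets that lay 1.54 apart (log2). The lower set held WT a to d and Col5a1CKO a to e of day 14, and the upper set held the WT wounds e to g and the Col5a1CKO wounds f and g of that day, with all wounds that received fibroblasts or were taken at day 19. In the upper set the 3 WT wounds of day 14 had RNA of Y-linked genes and the 2 Col5a1CKO wounds had Xist, so sex and genotype cannot be told apart there. The numbers of each sex read from RNA differ from those the study lists for all groups of this table but the WT wounds of day 19, and the sexes given here are those read from RNA. Col5a1, the targeted gene, ranged over 345 to 2404 CPM in the WT and 171 to 667 CPM in the Col5a1CKO wounds of day 14 (log2 fold change -1.43, standard error (SE) 0.49, edgeR adjusted p = 0.0756), and the groups overlapped. No marker of fibroblasts or keratinocytes, the main cells of the tissue, was at 0 in any wound, but their levels varied widely. At day 14 the summed level of 5 keratinocyte markers was 31.0 to 57131 CPM (median 731) in Col5a1CKO wounds. In WT wounds of that day it was 30307 to 153188 CPM (median 33943). The part of this difference in the results was not tested.

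**Figure D1:**
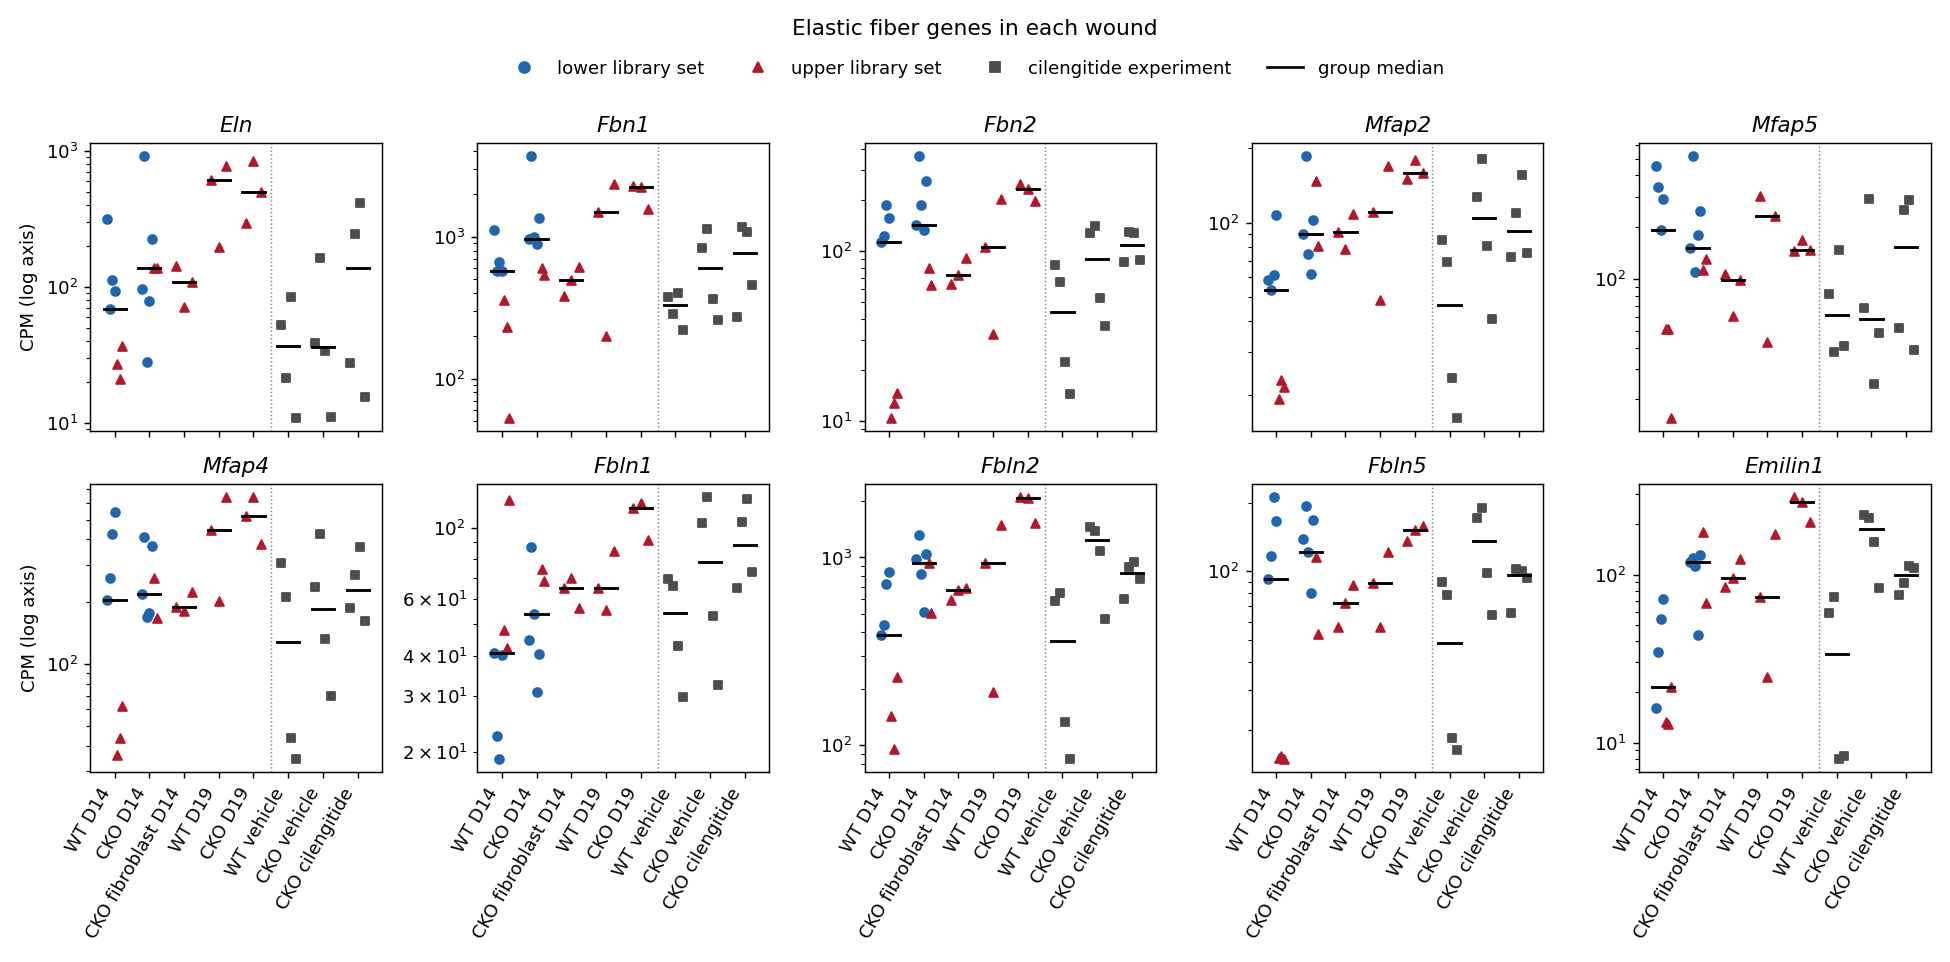
CPM (log axis) of each of the 10 genes in each of the 35 wounds, by group. Points are wounds, shaped and coloured by library set, black lines are group medians, and the dotted line parts the 2 count tables. The WT wounds e to g of day 14 lie below all other WT wounds of that day for 8 of the 10 genes, with Emilin1 and Fbln1 as the exceptions.

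Levels between genes can be compared only per length, and were compared as CPM per kb of the counted transcript in the time-course table. In WT wounds of day 14 the order of medians ran from Mfap5 at 136 and Mfap4 at 135 CPM per kb, through Fbln2 at 86.4, Fbn1 at 57.7 and Mfap2 at 49.6, to Eln at 18.3, Fbln5 at 15.8, Fbln1 at 12.1, Fbn2 at 10.9 and Emilin1 at 6.16. Each neighbouring pair overlapped over the 7 wounds. In Col5a1CKO wounds of day 19 Fbln2 led with 463 CPM per kb (339 to 471), followed by Mfap4 with 343 (251 to 424) and Fbn1 with 228 (159 to 229), and Fbn2 was last with 22.1 (18.8 to 23.6). There the ranges of Fbln2 and Mfap4 overlapped, and so did those of Fbln5 and Fbn2, while Emilin1 with 59.4 to 83.9 CPM per kb lay above Fbln1 with 27.4 to 35.5.

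Emilin1, which codes for a glycoprotein at the interface of elastin and microfibrils that also holds back TGF-β maturation, had the largest log2 fold change of the members between genotypes at day 14, at day 19 and with vehicle. It lies on the plus strand of chr5:31215775-31223651 in mouse build NCBI37/mm9. At day 14 the WT wounds had 13.0 to 72.0 CPM (median 21.3) and the Col5a1CKO wounds 43.8 to 178 CPM (median 119). Col5a1CKO wounds a, b, c, e and f lay above all WT wounds, and d and g overlapped with the highest WT wounds. The log2 fold change was 1.81 (SE 0.44, adjusted p = 0.0187, edgeR quasi-likelihood test with Benjamini-Hochberg adjustment over 14367 genes). A gene counted as called where its adjusted p was under 0.05 and its level differed at least 2-fold, and Emilin1 was called over all wounds and in each of 14 fits that left out a wound, with log2 fold changes of 1.63 to 2.12.

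By this rule 1 of the 10 members was called at day 14, against 8.28% of all genes tested, so the share among the members was close to the share among all genes. All 10 log2 fold changes were above 0, with a median of 1.03 over the members and -0.03 over all genes. The median was 0.50 without Col5a1CKO b, with 9 of 10 values above 0, and 8 of 10 were above 0 without WT e, f or g. Wounds are bulk tissue, in which more fibroblasts and more RNA of a gene per fibroblast cannot be told apart.

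Among the scaffold genes, Fbn1, the main fibrillin of adult tissue, was 52.6 to 1117 CPM in the WT wounds of day 14 (median 572) and 537 to 3728 CPM in Col5a1CKO wounds (median 972), with a log2 fold change of 1.33 (SE 0.57, adjusted p = 0.146). Fbn2, a fibrillin best known from developing tissue, was 10.4 to 187 CPM in WT (median 114) and 63.1 to 365 CPM in Col5a1CKO wounds (median 143), with a log2 fold change of 0.96 (SE 0.65, adjusted p = 0.357). Mfap2, which codes for the microfibril glycoprotein MAGP-1, was 19.4 to 107 CPM in WT (median 53.6) and 61.6 to 186 CPM in Col5a1CKO wounds (median 89.9), with a log2 fold change of 1.11 (SE 0.40, adjusted p = 0.087). For each of the 3 genes the groups overlapped, and 2 Col5a1CKO wounds lay above all WT wounds. Mfap5, which codes for the related MAGP-2, and Mfap4, a fibrinogen-domain protein that binds both elastin and fibrillin, had log2 fold changes of 0.03 and 0.16 (SE 0.62 and 0.55).

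Eln, on the minus strand of chr5:135179651-135223111, was 21.1 to 316 CPM (median 69.1) in the WT wounds of day 14 and 28.2 to 917 CPM (median 137) in those of Col5a1CKO mice. WT a and Col5a1CKO b stood far above the other wounds of their groups, and 1 Col5a1CKO wound lay above all WT wounds. The log2 fold change was 1.23 (SE 0.75, adjusted p = 0.308), and it was 0.26 to 1.94 when a wound was left out, with the lowest value without Col5a1CKO b. Fbln2, a fibulin that binds fibronectin, elastin and fibrillin, was 95.7 to 834 CPM in WT (median 387) and 506 to 1309.7 CPM in Col5a1CKO wounds (median 929.8), with a log2 fold change of 1.10 (SE 0.44, adjusted p = 0.124). Fbln5, which tethers elastin to integrins and is needed for fiber assembly, and Fbln1, which is found in the elastin core and in basement membranes, had log2 fold changes of 0.45 and 0.28 (SE 0.59 and 0.37).

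The day 14 values depended on the library sets. With the library set as a term of the model, 5 of 10 members were called, against 12.9% of all genes tested. These were Emilin1 (log2 fold change 1.89), Fbn2 (1.27), Fbn1 (1.23), Mfap2 (1.23) and Fbln2 (1.21), all higher in Col5a1CKO wounds. Within the upper set of 3 WT and 2 Col5a1CKO wounds, 6 of 10 members were called, against 9.22% of all genes, with log2 fold changes from 2.26 for Mfap4 to 3.05 for Emilin1. Eln was among them, with 27.4, 21.1 and 37.1 CPM in WT e, f and g and 137 and 138 CPM in Col5a1CKO f and g. Within the lower set of 4 WT and 5 Col5a1CKO wounds, 0 of 10 were called, against 6.6% of all genes, and Emilin1 had a log2 fold change of 1.26 (SE 0.43, adjusted p = 0.0928). There Mfap4, Mfap5 and Fbln5 had log2 fold changes of -0.43, -0.43 and -0.08, and the median over the members was 0.60. In the lower set the level of GC-rich relative to GC-poor genes did not overlap between genotypes. Its log2 values were -2.3350 to -1.7182 for WT and -1.5036 to -1.2002 for Col5a1CKO, a difference that fit does not remove. With this level as a term over all wounds, 6 of 10 members were called, Emilin1 among them, against 15.4% of all genes. For GC content Emilin1, Eln and Mfap2 were at percentiles 97.1, 98.6 and 94.8, and the other members at 28.9 to 84.5.

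**Figure D2:**
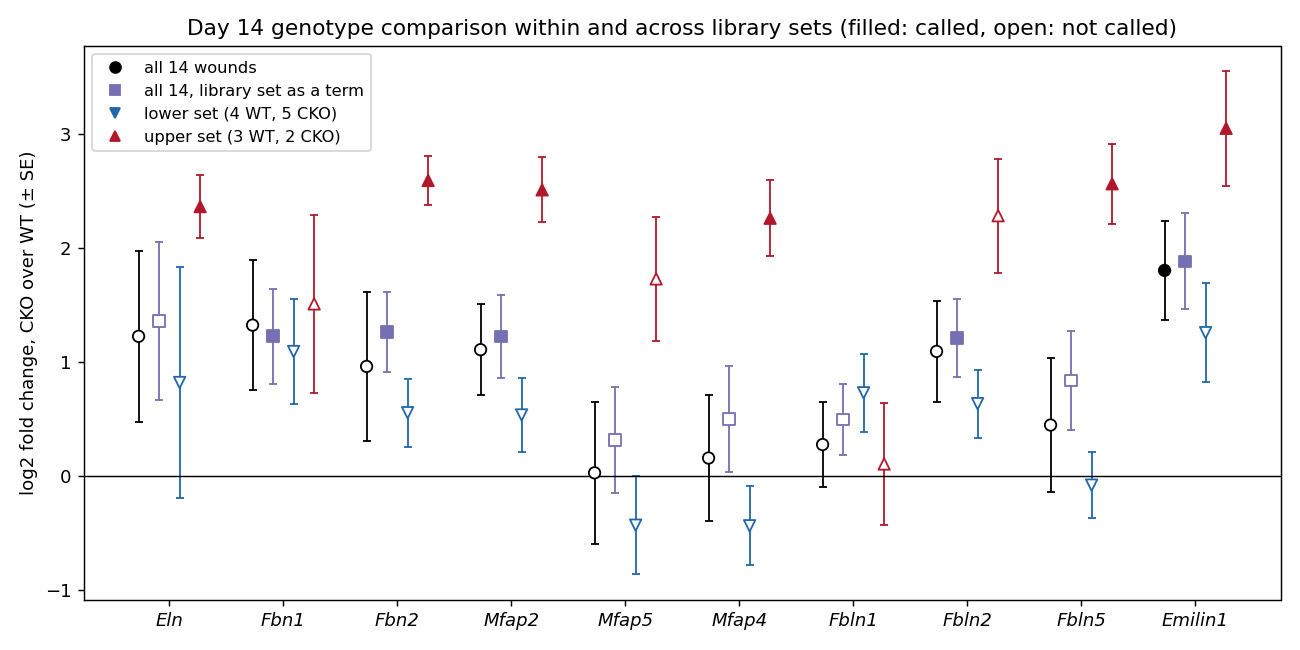
Log2 fold change of Col5a1CKO over WT wounds at day 14 for each gene (y axis), with bars of 1 SE, over all wounds, with the library set as a term, and within each set. Filled symbols were called and open symbols were not. The upper set gave the larger value for 9 of the 10 genes, and Fbln1 had 0.11 there and 0.73 in the lower set.

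The WT wounds e to g were low in nearly all of these genes at the same time. Fbn2 was 10.4 to 14.7 CPM in e to g and 114 to 187 CPM in a to d, and Fbln5 was 14.9 to 15.4 and 92.0 to 213 CPM. Fbln1 went the other way, with 42.1 to 122 CPM in e to g and 19.1 to 40.7 CPM in a to d. In the same wounds the summed level of 8 fibroblast markers was 8578 to 9665 CPM against 50255 to 84944 CPM in a to d, and that of 5 keratinocyte markers was 100283 to 153188 CPM against 30307 to 33943 CPM. Their part in the results was not tested.

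Of the 3 fibulins, Fbln1 and Fbln5 varied least alike over these wounds, and the bases before their starts are shown for that reason. For each gene the farther upstream of 2 RefSeq windows was taken. The letters are the 250 bases upstream of the RefSeq start in GRCm38.p6, 5′ to 3′ on the gene's strand, at chr15:85205699-85205948 (plus) for Fbln1 and chr12:101819120-101819369 (minus) for Fbln5. Capitals mark matches on either strand to 4 motifs that were searched, the GC box GGGCGG, the TATA box TATAAA, the AP-1 site TGANTCA and the SMAD element CAGACA, none of which overlap here.
Fbln1: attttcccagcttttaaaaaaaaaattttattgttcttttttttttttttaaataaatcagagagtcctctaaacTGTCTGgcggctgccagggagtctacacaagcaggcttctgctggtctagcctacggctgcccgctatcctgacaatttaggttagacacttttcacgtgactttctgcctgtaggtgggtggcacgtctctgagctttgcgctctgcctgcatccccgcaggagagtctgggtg
Fbln5: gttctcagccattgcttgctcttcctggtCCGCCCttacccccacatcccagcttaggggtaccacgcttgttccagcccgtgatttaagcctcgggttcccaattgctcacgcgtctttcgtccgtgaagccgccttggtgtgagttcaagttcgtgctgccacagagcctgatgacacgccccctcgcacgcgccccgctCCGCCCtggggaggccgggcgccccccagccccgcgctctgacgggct
The Fbln1 window held 1 SMAD element and the Fbln5 window 2 GC boxes, and the other motifs had 0 matches in both. Over 32851 promoters of the same length, 17.1% held the SMAD element and 32.7% the GC box, with 12.4% for the TATA box and 6.75% for the AP-1 site. The G and C content was 46.4% for Fbln1 and 65.2% for Fbln5. The other RefSeq window of each gene differed from these, with 1 GC box, 1 SMAD element and 62.4% G and C for Fbln1 and 0 GC boxes, 1 SMAD element and 49.6% for Fbln5. A match describes letters and is no evidence of binding.

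At day 19 the same question was asked in 6 wounds, of which the Col5a1CKO wounds had Xist in all 3 and the WT wounds in 2 of 3. The level of GC-rich relative to GC-poor genes also differed between these genotypes with no overlap. Its log2 values were 0.8850 to 1.0036 for WT and 0.4530 to 0.8230 for Col5a1CKO, and its part in the results was not tested. Emilin1 was 73.2, 24.5 and 175 CPM in WT a, b and c and 291, 268 and 206 CPM in the Col5a1CKO wounds. The groups did not overlap, with a log2 fold change of 1.52 (SE 0.71, adjusted p = 0.243). Fbln2 was 929, 192 and 1493 CPM in the WT wounds and 2107, 2072 and 1519 CPM in Col5a1CKO wounds (log2 fold change 1.15, SE 0.76, adjusted p = 0.364), and Fbln1 and Fbln5 did not overlap either. In total 4 members lay higher in all Col5a1CKO wounds than in all WT wounds. How many of all genes did so was not counted, here or where no overlap is named below. Absence of overlap is therefore given as a description. Of the 10 members 0 were called by edgeR, against 0.0198% of all genes. At an unadjusted p under 0.05 there was 1 member (24.1% of all genes), and DESeq2 called 0 (9.23%). WT b was the lowest of the 6 wounds for all 10 members. Eln was 609, 195 and 772 CPM in the WT wounds and 295, 834 and 499.9 CPM in Col5a1CKO wounds, a log2 fold change of 0.08 (SE 0.64), which was -0.33 without WT b and -0.37 without Col5a1CKO b.

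Whether the genotypes differed by another amount at day 19 than at day 14 was tested as an interaction. Of the 10 members 0 were called, against 0% of 15954 genes tested, and the largest day 19 minus day 14 value was that of Eln, -1.17 on the log2 scale (SE 1.26, edgeR adjusted p = 0.9999). A term for the library set also gave 0 of 10 called, against 0.276% of all genes. At an unadjusted p under 0.05 there were 939 genes, or 5.89% of those tested, and 0 members, and DESeq2 called 0 members and 0.213% of all genes.

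Between day 14 and day 19 of WT wounds, Eln had the largest log2 fold change of the members, 2.47 (SE 0.76, adjusted p = 0.0787), from 21.1 to 316 CPM at day 14 to 195 to 772 CPM at day 19. Of the 10 members 0 were called by edgeR, against 5.74% of all genes, with 2 at an unadjusted p under 0.05 (23.6% of all genes) and Eln called by DESeq2 (13%). Without WT c of day 19 the median over the members was 0.57, against 1.05 with all wounds. All day 19 wounds are in the upper library set. With the library set as a term, which compares them in effect with WT e to g, 9 of 10 members were called, against 12.9% of all genes. The log2 fold change of Eln was then 4.36 (SE 0.71, adjusted p = 0.0031), those of Fbn2 and Mfap4 were both 3.34, and Fbln1, at 0.09, was the member not called. Mfap5 and Fbln5 had log2 fold changes of -0.03 and -0.0050 without that term and 2.45 and 2.71 with it.

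In Col5a1CKO wounds the time comparison also had 0 of 10 members called by edgeR, against 5.72% of all genes, with 4 at an unadjusted p under 0.05 (27.1% of all genes). Fbln2 went from 506 to 1309.7 CPM at day 14 to 1519 to 2107 CPM at day 19 with no overlap (log2 fold change 1.12, SE 0.31, adjusted p = 0.0534). Emilin1 (log2 fold change 1.19, adjusted p = 0.0621) and Fbln1 (0.92, adjusted p = 0.0762) did not overlap between the days either, while Mfap5 had -0.44 (SE 0.48). DESeq2 called Fbln2, Emilin1 and Mfap4, against 10.8% of all genes. With the library set as a term 0 of 10 were called, against 1.94% of all genes, and Fbn1 and Fbn2 had log2 fold changes of 1.82 and 1.64 in place of 0.64 and 0.36.

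**Figure D3:**
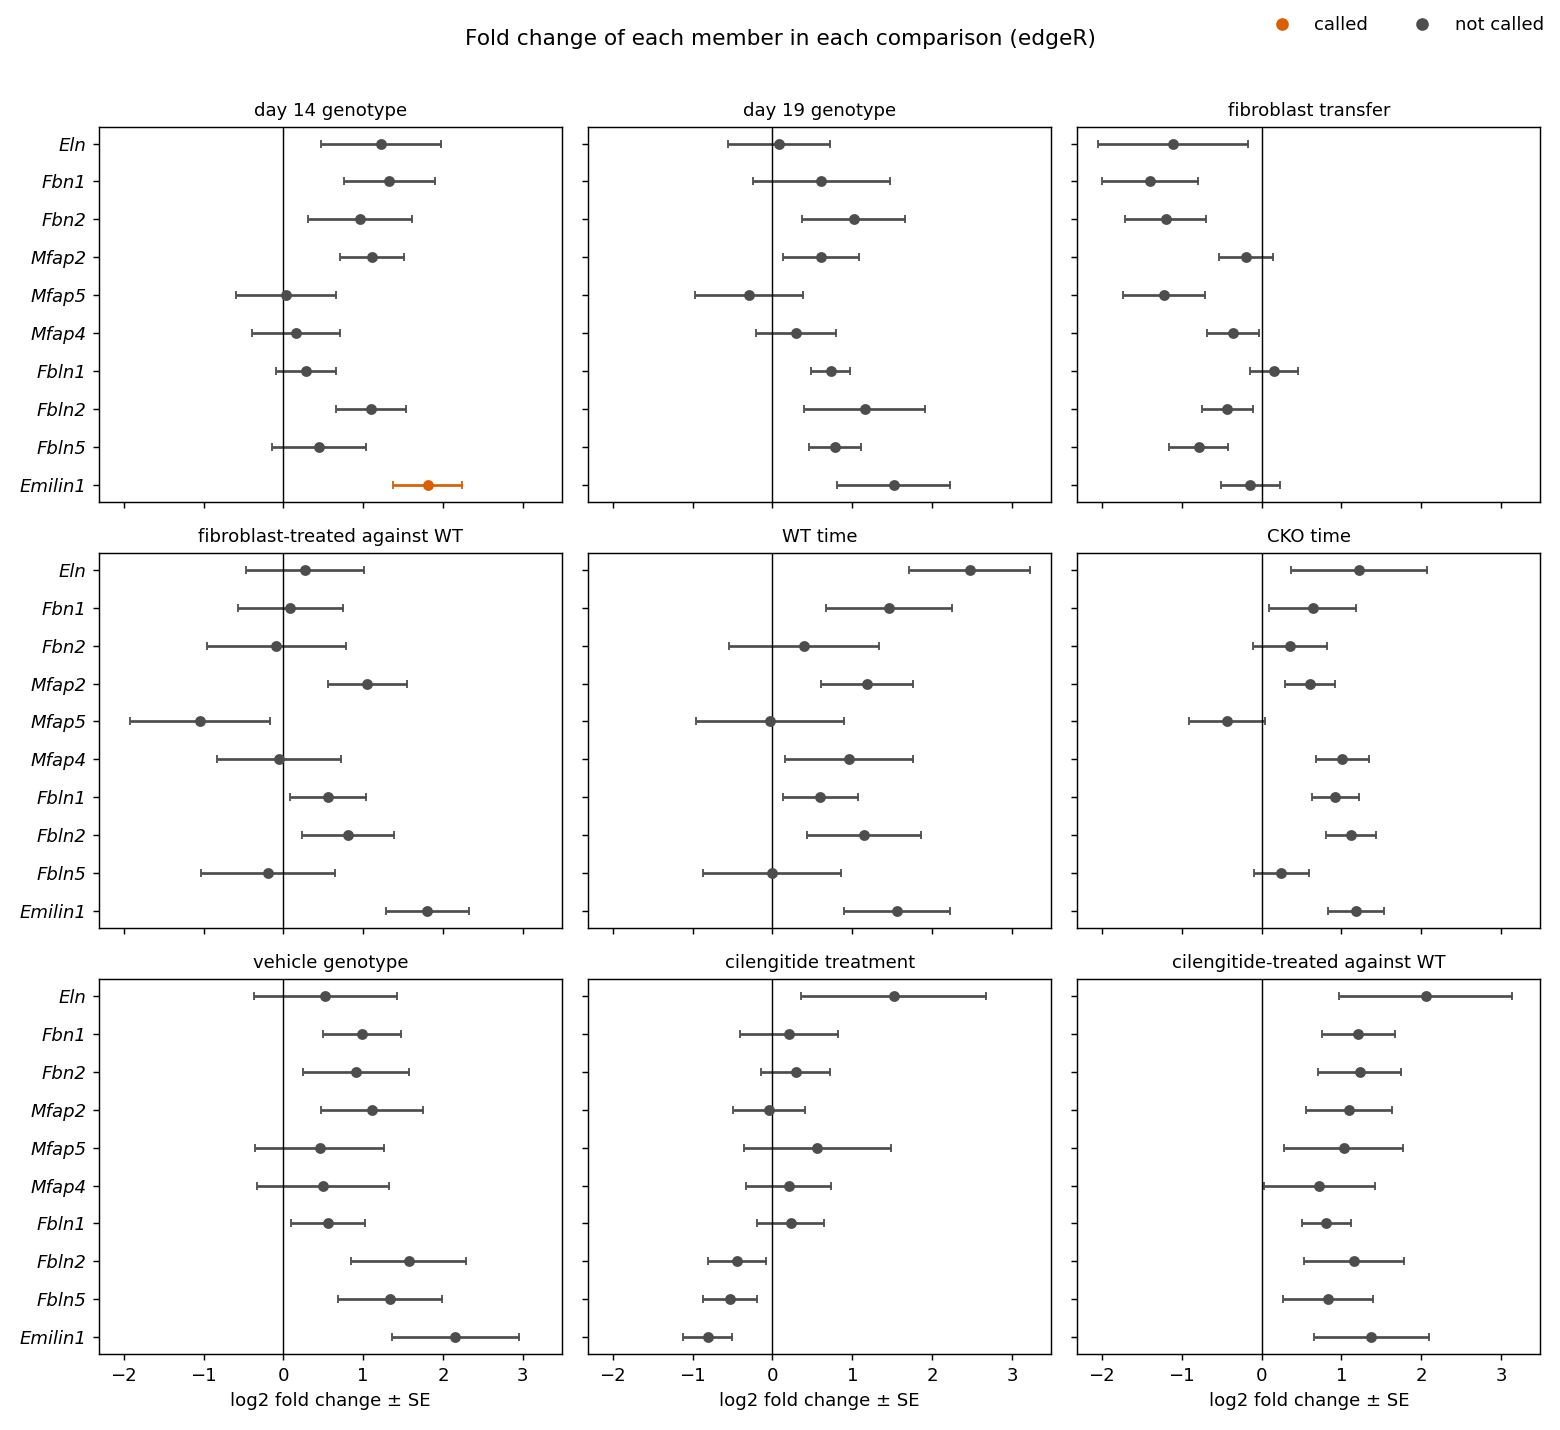
Log2 fold change of each gene (x axis, bars of 1 SE) in the 9 comparisons of groups. Each panel gives the treated or mutant group over its control, or day 19 over day 14. Emilin1 at day 14 is the 1 value called, in orange, and most values of the genotype and time panels lie right of 0.

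Injection of WT fibroblasts was compared with the 7 Col5a1CKO wounds of day 14 that had none. Fbn1 was 382, 492 and 613 CPM in the 3 wounds with fibroblasts and 537 to 3728 CPM (median 972) in the others, a log2 fold change of -1.39 (SE 0.60, adjusted p = 0.378). Mfap5 was 107, 61.3 and 99.2 CPM and 109 to 520.4 CPM, with no overlap and a log2 fold change of -1.22 (SE 0.51, adjusted p = 0.376). Emilin1 was 84.3, 95.4 and 124 CPM, within the 43.8 to 178 CPM of the wounds without fibroblasts. The log2 fold change was below 0 for 9 of the 10 members (median -0.61), and 0 were called by edgeR, against 0% of 15659 genes, with 3 at an unadjusted p under 0.05 (12.8% of all genes) and 0 called by DESeq2 (0.121%). Of the 8 fibroblast markers 0 had a value above 0 in this comparison (median log2 fold change -1.06), and of the 5 keratinocyte markers all 5 did (median 1.12), with 0 called in either list. Within the upper library set alone the groups overlapped for both sums. The fibroblast markers summed to 36875 to 47693 CPM with fibroblasts and to 58024.5 and 31776 CPM in Col5a1CKO f and g without. The keratinocyte markers summed to 11410 to 28324 CPM with fibroblasts and to 134 and 57131 CPM in f and g. Their part in the values of the members was not tested.

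The wounds with fibroblasts are all in the upper library set, which holds 2 Col5a1CKO wounds without them. Fbn1 was 604 and 537 CPM, Fbn2 79.4 and 63.1 CPM and Mfap5 112 and 131 CPM in these wounds, f and g. With the library set as a term the log2 fold changes were -0.45 for Mfap5 to 0.10 for Fbn2 (median -0.21), and 0 of 10 were called, against 0% of all genes. Against WT wounds of day 14, which other comparisons also use, Emilin1 of the wounds with fibroblasts lay above all 7 with a log2 fold change of 1.80 (SE 0.52, adjusted p = 0.0661). Of the 10 members 0 were called there by edgeR, against 5.84% of all genes, with 1 at an unadjusted p under 0.05 (22.3% of all genes) and Emilin1 called by DESeq2 (13.3%). With the library set as a term 7 of 10 were called, against 16.7% of all genes, with Fbn1, Mfap5 and Fbln1 (log2 fold changes 1.38, 1.35 and 0.01) as the others. That fit in effect compares with WT e to g, which had RNA of Y-linked genes. All 3 wounds with fibroblasts had Xist, so sex and group cannot be told apart there.

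In the cilengitide experiment Emilin1 was 59.3, 73.3, 7.997 and 8.37 CPM in WT wounds 1 to 4 with vehicle, 225, 217, 156 and 83.2 CPM in Col5a1CKO wounds with vehicle and 76.0, 88.8, 112 and 109 CPM in Col5a1CKO wounds with cilengitide. Both Col5a1CKO groups lay above all WT wounds, and with cilengitide 3 of 4 wounds lay within the range of vehicle and 1 below it. The log2 fold change of Col5a1CKO over WT with vehicle was 2.15 (SE 0.80, adjusted p = 0.0559). That of cilengitide over vehicle was -0.81 (SE 0.31, adjusted p = 0.0853), and without Col5a1CKO vehicle 4 it was -1.04 (adjusted p = 0.0079) and Emilin1 was called. In this comparison 0 of the 8 fibroblast markers had a value above 0 (median -0.79, 0 called), and the 5 keratinocyte markers all did (median 3.37, 2 called), and their part in the value of Emilin1 was not tested. The log2 fold change of cilengitide over WT was 1.38 (SE 0.72, adjusted p = 0.187). Among the WT wounds and the wounds with cilengitide, 2 in each group had Xist and 2 had RNA of Y-linked genes. Of the Col5a1CKO wounds with vehicle 3 had RNA of Y-linked genes and 1 had neither. Sex was therefore not balanced in the comparisons that use this group, and its part in the results was not tested.

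With vehicle, all 10 members had log2 fold changes above 0 for Col5a1CKO over WT, with a median of 0.95 against 0.02 over all genes, and 0 of 10 were called by edgeR, against 30.9% of all genes, with 1 at an unadjusted p under 0.05 (56.6% of all genes). The median was 0.58 without Col5a1CKO vehicle 2, with 7 of 10 above 0, and 3.15 with the level of GC-rich relative to GC-poor genes as a term, which did not overlap between the genotypes (log2 values of -0.03 to 0.13 for WT against -0.55 to -0.20). DESeq2 called Emilin1 and Fbln2, against 34.1% of all genes. Fbln2 was 585, 643, 133 and 84.5 CPM in the WT wounds and 1452, 1391, 1085 and 472 CPM in Col5a1CKO wounds (log2 fold change 1.57, SE 0.72, adjusted p = 0.105). WT 3 and 4 were lowest for Fbln1, Fbln2, Fbln5, Fbn2, Mfap2, Mfap4 and Emilin1 and not for Fbn1, Eln or Mfap5, of which WT 3 had the most in its group. Without WT 2, or without Col5a1CKO 4, Emilin1 was called, and without Col5a1CKO 4 so was Fbn1. The summed level of the 5 keratinocyte markers was 59246 to 96019 CPM in the WT wounds and 60.9 to 11643 CPM in Col5a1CKO wounds with vehicle, and that of the 8 fibroblast markers 9992 to 55685 CPM and 24444 to 116117 CPM. Their part in the results was not tested.

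For cilengitide over vehicle, 0 of 10 members were called by edgeR, against 13.1% of all genes, with 1 at an unadjusted p under 0.05 (40.4% of all genes) and 0 called by DESeq2 (17.1%). The median log2 fold change was 0.21, and with a wound left out it ran from -0.07 without vehicle 4 to 0.56 without vehicle 2. Eln was 38.9, 163, 33.7 and 11.2 CPM with vehicle and 27.4, 246, 411 and 15.5 CPM with cilengitide. Of the 4 cilengitide wounds, 2 were above all vehicle wounds and 2 were within their range, and the log2 fold change was 1.52 (SE 1.16, adjusted p = 0.36). Mfap5 had the same high and low wounds, with 52.3, 253, 288 and 38.7 CPM (log2 fold change 0.56, SE 0.92). For cilengitide over WT, all 10 values were above 0 with a median of 1.13, and 0 of 10 were called by edgeR, against 8.58% of all genes, with 3 at an unadjusted p under 0.05 (40.2% of all genes). Fbn2 and Emilin1 did not overlap there, and DESeq2 called Fbn1 and Fbn2, against 14% of all genes.

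The other genes of elastic fiber assembly and crosslinking were followed in a list of 23 genes, chosen with earlier results of these data known. They include the lysyl oxidases, which crosslink elastin, the latent TGF-β binding proteins (LTBPs), which sit on microfibrils, and relatives of Emilin1. At day 14, 10 of 22 tested genes were called, each of them higher in Col5a1CKO wounds, against 8.28% of all genes called in either direction, and the median log2 fold change was 1.33. The smallest adjusted p were those of Ltbp2 (log2 fold change 4.85, adjusted p = 0.0049), Loxl3 (2.39, adjusted p = 0.0062) and Emilin2 (2.07, adjusted p = 0.0066). With vehicle in the cilengitide experiment 11 of 22 were called higher and 0 lower, against 30.9% of all genes, led by Emilin2 (3.74, adjusted p = 0.0015), Adamtsl4 (1.83, adjusted p = 0.003) and Adamts6 (3.27, adjusted p = 0.005).

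Emilin2 and Adamts6, a secreted metalloproteinase, were the 2 of 23 called lower with cilengitide compared with vehicle, against 13.1% of all genes called in either direction (log2 fold changes -2.13 and -1.04, adjusted p = 0.0180 and 0.0322). With cilengitide compared with WT 8 of 22 were called higher, against 8.58% of all genes called, and with fibroblasts compared with WT 3 of 22, against 5.84%. From day 14 to day 19, 4 of 22 were called higher in WT and 5 of 23 in Col5a1CKO wounds and 0 lower in either, against 5.74% and 5.72% of all genes, with Ltbp3 (log2 fold changes 1.97 and 1.39), Adamts10 (2.23 and 1.498) and Adamtsl4 (2.34 and 1.38) called in both. In the day 19 genotype comparison and for fibroblasts over no fibroblasts in Col5a1CKO wounds 0 of 23 were called by edgeR, against 0.0198% and 0% of all genes. The counts of this list and of those below come from fits without a term for the library set. In WT wounds of day 14 the genes of this list summed to 469 to 648 CPM in the upper set and 1342 to 2008 CPM in the lower set.

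Of 10 proteases that can degrade elastin, 2 of 6 tested were called higher in Col5a1CKO wounds at day 14, against 8.28% of all genes called, the gelatinases Mmp2 (log2 fold change 1.66, adjusted p = 0.0384) and Mmp9 (1.98, adjusted p = 0.0413). With vehicle 6 of 6 were called higher, against 30.9% of all genes, led by cathepsin S (Ctss, 3.04, adjusted p = 0.0021), cathepsin L (Ctsl, 1.74, adjusted p = 0.003) and macrophage elastase (Mmp12, 5.51, adjusted p = 0.0042). With cilengitide compared with vehicle Ctss, Mmp12 and Ctsl fell (log2 fold changes -1.54, -3.64 and -1.07) among 9 tested, against 13.1% of all genes called, and with cilengitide compared with WT 3 of 7 were called higher, against 8.58%. Mmp12 also fell from day 14 to day 19 in Col5a1CKO wounds (-4.24, adjusted p = 0.0313). The neutrophil genes Elane, Prtn3 and Ctsg were at 0 in 13, 6 and 8 of the 23 wounds of the time-course table. Of the 3 genes of the elastin receptor complex (Glb1, Neu1, Ctsa), 2 were called higher in Col5a1CKO wounds with vehicle, against 30.9% of all genes. Neu1, a sialidase, was among them (2.81, edgeR adjusted p = 0.0034). With cilengitide compared with vehicle Neu1 was the 1 called lower (-1.84, edgeR adjusted p = 0.0319), against 13.1% of all genes. Compared with WT, 1 of the 3 was called higher with fibroblasts and 1 with cilengitide, against 5.84% and 8.58%.

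Markers of leukocytes and the elastin-degrading proteases had median log2 fold changes of the same sign in most comparisons of groups. The exceptions were fibroblasts over no fibroblasts in Col5a1CKO wounds (0.59 for leukocytes and -0.23 for proteases) and WT wounds over time (0.995 and -0.06). Whether they vary together over wounds was not tested. The summed level of 5 leukocyte markers was 126 to 330.1 CPM in the WT wounds of day 14 and 396 to 1839 CPM in the Col5a1CKO wounds. With vehicle it was 98.1 to 182 CPM in the WT wounds and 905 to 3713 CPM in the Col5a1CKO wounds, and with cilengitide 321 to 838 CPM. By gene, 4 of the 5 were called higher and 1 lower in Col5a1CKO wounds with vehicle, against 30.9% of all genes called. At day 14, 4 of these 5 were called higher in Col5a1CKO wounds, as were 3 of 8 fibroblast, 4 of 4 endothelial and 3 of 6 smooth muscle and pericyte markers. Of all genes 8.28% were called there in either direction, and 0 keratinocyte, skeletal muscle, adipocyte or Schwann markers were. Though not called, 0 of the 5 keratinocyte markers had a log2 fold change above 0 (median -1.88). Their summed level was 31.0 to 57131 CPM (median 731) in the Col5a1CKO wounds and 30307 to 153188 CPM (median 33943) in the WT wounds. Vessel walls are a known source of elastin. The summed levels of vessel markers at day 14 were 59.3 to 217 CPM (endothelial) and 102 to 1226 CPM (smooth muscle and pericyte) in the WT wounds, against 202 to 496 CPM and 830.3 to 2443 CPM with Col5a1CKO. Their part in the values of the members was not tested.

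Across wounds most members varied together. Over the 23 wounds of the time-course table, Pearson's r of log2(CPM + 1) ran from -0.28 to 0.96 over the 45 pairs of members, with a median of 0.75, and over the 12 wounds of the cilengitide experiment from 0.08 to 0.98 with a median of 0.79. The points share groups, library sets and depth, and r is given as a description. Fbn2 and Fbln5 were the closest pair in the time-course table (0.96), and Fbln2 and Fbln5 in the other (0.98). Fbln1 stood apart in the time-course table, with r from -0.28 to 0.47 with the other members, but not in the other, where it had 0.94 with Fbn2. Mfap5 had r of 0.34 and 0.08 with Emilin1, the lowest pair of the cilengitide experiment, and 0.60 and 0.90 with Eln.

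**Figure D4:**
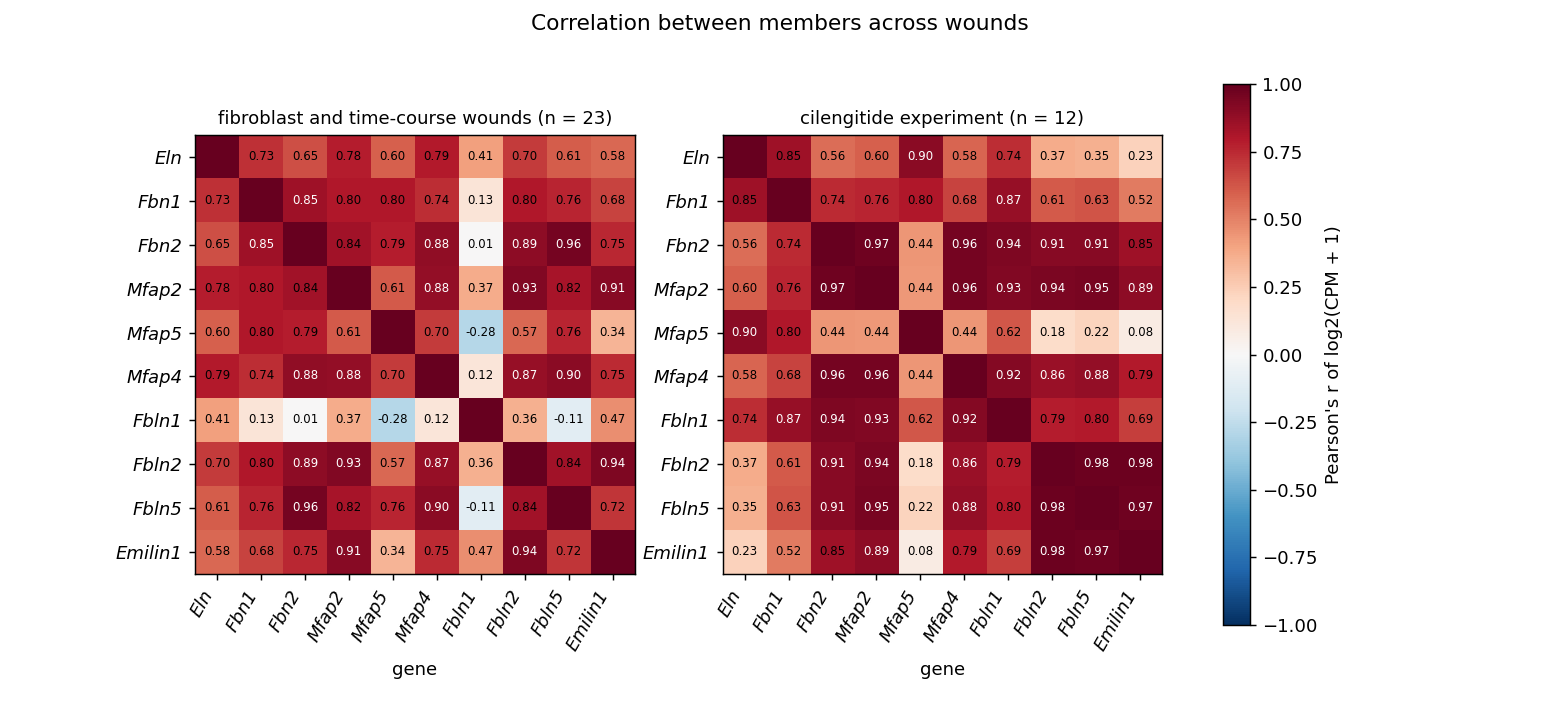
Pearson's r of log2(CPM + 1) between each pair of genes, over 23 wounds (left) and 12 wounds (right). Rows and columns are genes, red is positive and blue negative. Fbln1 is the pale row on the left, and on the right Eln and Mfap5 are pale against Fbln2, Fbln5 and Emilin1.

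Measured against the fibroblast markers of the same wound (the geometric mean CPM of Col1a1, Col1a2, Col3a1, Dcn, Lum, Pdgfra, Pdgfrb and Thy1, chosen once values were known), Fbln2 had r of 0.92 and 0.98 in the 2 tables and Emilin1 0.82 and 0.97, while Eln had 0.59 and 0.37 and Fbln1 0.04 and 0.79. Emilin1 as a share of this level was 1.21% to 3.88% in WT a to d and 2.85% to 4.41% in Col5a1CKO a to e, and 5.36% to 8.65% in WT e to g and 7.22% and 9.28% in Col5a1CKO g and f, so that the genotypes overlapped within each library set. At day 19 it was 5.37% to 7.22% for WT, below the 8.04% to 8.79% for Col5a1CKO with no overlap. In the cilengitide experiment it was 2.39% to 7.02% in WT, 6.26% to 8.90% with vehicle and 5.63% to 6.72% with cilengitide in Col5a1CKO wounds. Eln as a share of the same level was highest in WT wounds of day 19, at 31.8% to 49.4%, against 8.92% to 25.0% in Col5a1CKO wounds of that day, again with no overlap.

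**Figure D5:**
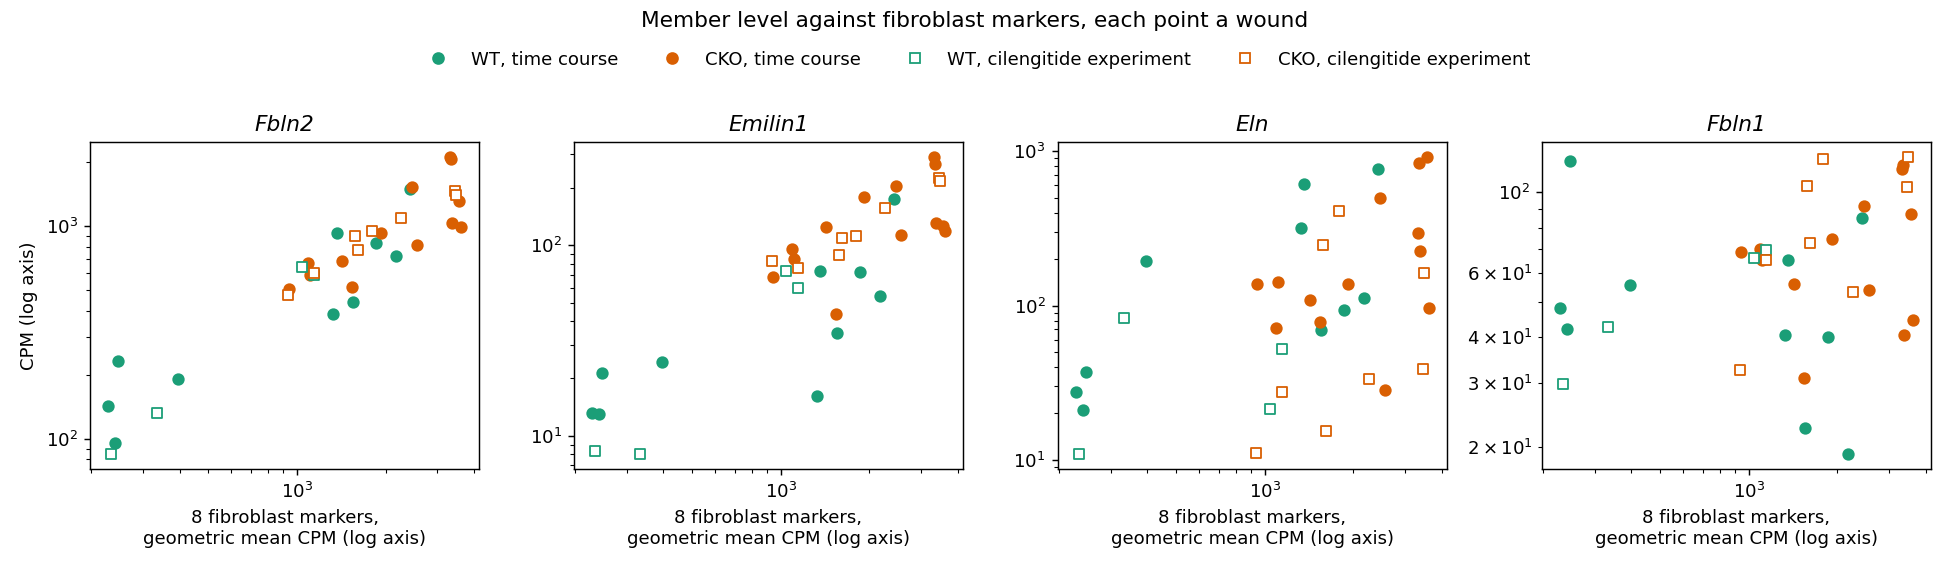
CPM of Fbln2, Emilin1, Eln and Fbln1 (y axis, log) against the geometric mean CPM of 8 fibroblast markers (x axis, log). Each point is a wound, coloured by genotype and filled for the time-course table. Fbln2 and Emilin1 run along the diagonal, and Eln and Fbln1 are scattered.

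The genes whose pattern was most like that of Eln were taken by the same r over all genes whose mean CPM reached 1. Over the 23 wounds these were Gprc5b (0.92), an orphan receptor, Ace (0.89), angiotensin-converting enzyme, Igfbp5 (0.89), Plce1 (0.89) and Cygb (0.89), out of 14351 genes. Over the 12 wounds of the cilengitide experiment they were Pamr1 (0.96), Ebf2 (0.93), Akr1c14 (0.93), Dpt (0.93), the dermal matrix protein dermatopontin, and C4b (0.93), out of 13892. No gene was among the 5 in both. Eln itself spanned 21.1 to 917 CPM in the time-course table, a 43.5-fold range, and 10.9 to 411 CPM in the other, a 37.8-fold range, whereas Fbln1 spanned 6.38-fold and 4.19-fold.

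Genes on the opposite strand overlap exons of 2 members in the GENCODE annotation of NCBI37, Gm9913 for Fbn1 and Mapk7 for Mfap4. The libraries keep strand, and whether the counting used it was not given in the sources used here, so reads of these overlaps cannot be assigned.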

How the data were processed

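RNA-seq was done on 35 wounds. The authors aligned reads with HISAT2 to mm9 (version not given in the sources used here) and deposited raw counts in 2 tables. The time-course table has counts per transcript over RefSeq exons, and the cilengitide table has counts per gene symbol. The study's methods name SeqMonk for counting, and whether they cover the cilengitide libraries was not stated. Rows without a gene name (0.0492% of counts in the time-course table and 5.91e-05% in the other) were left out, and where a symbol had several rows the one with the largest total was used. Of the small counts from 2 to 9, 56.2% were even in the time-course table and 69.3% in the cilengitide table. Groups followed the sample labels, and the tables were never tested together. The members and gene lists were chosen with earlier results of these data known.

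Genes passed filterByExpr with a count minimum of 10, and each comparison was fitted on its own groups with the quasi-likelihood test of edgeR 4.0.16 (R 4.3.3, TMM, Benjamini-Hochberg adjustment over all genes). A call needed an adjusted p under 0.05 and a 2-fold difference. The functions were tested on simulated counts. Named genes were all 10 members, Col5a1, up to 3 called genes per list, direction and comparison with the smallest adjusted p (Adamtsl4 was named outside this rule, after its values were seen), and the 5 genes most correlated with Eln. Alternatives were DESeq2 1.42.0, its size factors, no filter, summed rows, a 3-fold limit or none, a replicate block, and leaving out in turn each wound of the groups of 3 or 4 and, in the day 14 genotype comparison, of the groups of 7. The GC and sex terms, and the level relative to fibroblast markers, were chosen after the data were seen. Summaries and plots used Python 3.11.15, pandas 2.3.3, numpy 2.4.6 and matplotlib 3.10.9. Promoters are RefSeq GRCm38.p6, with 6 of 10 members matched.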

Additional observations from a re-analysis of the deposited data

Results flagged for a closer look

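Of 50 groups of 4 to 10 wounds tested over the members, 6 held a wound that stood far from the others by Dixon's criterion. Chance gives this in about 1 of 20 for independent values with a normal spread. The CPM were used without logs and the members vary together, so that rate cannot be applied here and the 6 are a description. In WT wounds of day 14, Eln was 316 CPM in wound a (next highest 113, median 69.1) and Fbln1 was 122 CPM in wound g (next 48.0, median 40.7). Col5a1CKO wound b of day 14 was far above its group for 3 members, with Eln at 917 CPM (next 225, median 137), Fbn1 at 3728 CPM (next 1359, median 972) and Mfap5 at 520.4 CPM (next 249, median 152). In the cilengitide experiment Mfap5 was 291 CPM in Col5a1CKO vehicle wound 2 (next 67.7, median 58.3), the library with RNA of neither Xist nor Y-linked genes.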

How the results depend on the processing

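Of 1080 log2 fold changes of single members under an alternative, 953 kept their direction and side of the threshold, 68 passed it only under the alternative, 1 only without it and 67 changed sign, and some did both. The number of members called moved as follows, with the share of all genes called under the same setting in parentheses. At day 14 it was 2 with DESeq2 (14.6%), 5 with the library set as a term (12.9%), 6 within the upper set (9.22%), 0 within the lower set (6.6%), 6 with the GC contrast as a term (15.4%) and 4 with sex and library set as terms (12.7%), against 1 (8.28%). For wounds with fibroblasts over WT it was 1 with DESeq2 (13.3%), 7 with the set term (16.7%) and 7 within the upper set (31%), against 0 (5.84%). For WT wounds over time it was 1 (13%), 9 (12.9%) and 7 (24.3%) under the same settings, against 0 (5.74%). For Col5a1CKO wounds over time it was 3 with DESeq2 (10.8%) and 1 with its size factors (5.47%), against 0 (5.72%). With vehicle it was 2 with DESeq2 (34.1%) and 2 with the GC contrast (18.7%), against 0 (30.9%), and for cilengitide over WT 2 with DESeq2 (14%), against 0 (8.58%). With a wound left out it was 1 to 2 at day 14, 0 to 2 with vehicle, 0 to 1 for cilengitide over vehicle and 0 to 1 for cilengitide over WT. Except where a setting has fewer wounds by construction, the cause was not tested.

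A paired analysis used the library letters, which no label ties to a shared animal or day. Over pairs of wounds the correlation of deviations from group means averaged 0.132 at day 14 (-0.374 to 0.460), -0.362 at day 19 and 0.0876 for fibroblast transfer, so the letters were read as names only. With the replicate block Emilin1 was the 1 member called at day 14 (log2 fold change 2.03), 0 were called at day 19, and for fibroblast transfer 2 were called, against 0, Fbn2 (-1.50) and Fbln5 (-1.07). That last fit held only the 6 wounds with shared letters, in which treatment and library set coincide and cannot be told apart, and called 16.8% of all genes.

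Signs changed as follows (log2 fold changes). Within the lower set at day 14 they were -0.078 for Fbln5, -0.43 for Mfap4 and -0.43 for Mfap5, and with the replicate block at day 19 Mfap5 was 0.076. For fibroblast transfer Fbln1 and Fbn2 were -0.17 and 0.10 with the set term and -0.11 and 0.16 within the upper set. For wounds with fibroblasts over WT, Fbn1 was -0.0018 with both DESeq2 and its size factors. There Fbln5, Fbn2, Mfap4 and Mfap5 were 2.42, 2.77, 2.23 and 1.35 with the set term and 2.40, 2.74, 2.21 and 1.33 within the upper set, where Fbln1 was -0.0048. For WT wounds over time Fbln5 and Mfap5 were 0.089 and 0.042 with DESeq2, 0.090 and 0.042 with its size factors, 0.094 and 0.056 with no filter, 0.093 and 0.053 with summed rows, 2.71 and 2.45 with the set term and 2.71 and 2.46 within the upper set. For Col5a1CKO wounds over time Mfap5 was 0.32 with the set term and 0.39 within the upper set. In the interaction with the set term Fbln2, Fbln5, Fbn2 and Mfap4 were -0.070, -0.069, -0.27 and -0.23.

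With a wound left out, values of both signs were seen at day 14 for Mfap4 (-0.038 to 0.53) and Mfap5 (-0.38 to 0.39), and at day 19 for Eln (-0.37 to 0.49), Mfap4 (-0.067 to 0.73) and Mfap5 (-0.77 to 0.19). They were also seen for wounds with fibroblasts over WT for Eln (-0.017 to 0.48) and Fbn1 (-0.14 to 0.21), and for WT wounds over time for Fbln5 (-0.24 to 0.37), Fbn2 (-0.28 to 0.95) and Mfap5 (-0.40 to 0.55). With vehicle they were seen for Eln (-0.63 to 1.10), Mfap4 (-0.081 to 1.14) and Mfap5 (-0.76 to 0.98), and for cilengitide over vehicle for Fbln1 (-0.028 to 0.54), Fbn1 (-0.076 to 0.62), Mfap2 (-0.31 to 0.32) and Mfap4 (-0.089 to 0.76). The lowest count of a member in a wound was 228, and what depth limits was not tested.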
